A study of Homo sapiens with 6 samples.

Results

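The MYC family and the neighbourhood of MYCN are described here by 6 genes of the 17013 in the deposited count table: the paralogues MYCN, MYC and MYCL, and the genes DDX1, NBAS and CYRIA that lie around MYCN on chromosome 2. They were taken by gene symbol, and all 6 passed the filter on low counts that left 12819 genes for testing. The cells were Y79, a human cell line established from a retinoblastoma, a childhood tumour of the retina, and known to carry extra copies of MYCN. The control group carried a control shRNA and is labelled MYCN wild-type, and the other group carried a MYCN-targeting shRNA and is labelled MYCN knockdown. Each group had 3 libraries, described as independent biological replicates, and all 6 are labelled batch 1. The hairpin sequences, the number of hairpins and the time of harvest are not stated in these sources, and variation from 1 hairpin to another could therefore not be assessed.

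MYC proteins are transcription factors that pair with MAX, bind E-box sequences in DNA and raise the output of genes for growth, ribosome assembly and metabolism. MYC is active in many dividing tissues, MYCN mainly in the developing nervous system and retina, and MYCL in a narrower range of tissues. In neuroblastoma and retinoblastoma the MYCN locus can be amplified, and the amplified stretch often takes in DDX1 and sometimes NBAS. DDX1 encodes a DEAD box RNA helicase, NBAS a tethering factor of transport from Golgi to endoplasmic reticulum, and CYRIA a protein that binds RAC1 and restrains actin remodelling.

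The libraries held 15490271 to 16078402 counts, and the biological coefficient of variation was 3.34%. The hairpins separated the libraries broadly: 75.8% of tested genes were called in either direction (edgeR quasi-likelihood test, adjusted p under 0.05), 38.0% higher and 37.9% lower with the MYCN hairpin, and for 76.8% the groups were fully separated, with the MYCN hairpin libraries all above the controls for 38.6% and all below for 38.2%. Of the 6 genes 4 were called, 2 in each direction, and the same 4 were fully separated, so neither count stands out from these shares. The balance between directions depended on the TMM scaling, since library sizes alone moved the median over all genes from 0.00 to 0.19 (log2) and gave 6597 genes higher and 3348 lower in place of 4865 and 4857. The 10 photoreceptor precursor markers were all detected, with a summed level of 2241 to 2331 CPM (counts scaled to library depth) in controls, while the libraries with the MYCN hairpin had 2198 to 2249 CPM. This near-equal sum hides changes in single markers: 8 rose and 2 fell (OTX2 and AIPL1), and the median log2 fold change was 1.18. Only OTX2 was called lower with upper quartile scaling or library sizes alone. THRB rose by 2.45, while OTX2, which makes up much of the sum, fell by 0.67 and AIPL1 had a log2 fold change of -0.11 (0.07 with library sizes alone). The 11 markers of other cell types summed to 3.28 to 4.07 CPM in controls, while those with the MYCN hairpin had 9.47 to 10.2 CPM, with 3 to 6 of them at 0 in a library. Most of this difference lay in RPE65 and COL1A1. RPE65, a marker of the retinal pigment epithelium, rose from 0.244 ± 0.151 to 4.72 ± 0.208 CPM (SD, n = 3). COL1A1, a collagen gene of fibroblasts, rose from 1.12 ± 0.178 to 2.75 ± 0.539 CPM. The controls held 5, 5 and 1 counts of RPE65, under the filter minimum of 10. It therefore passed the filter only through the MYCN hairpin libraries. COL1A1 was also scarce, with 14, 18 and 18 counts in the controls. These markers were named after their values were seen, and the part of either marker list in the results below was not tested.

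The region just before the start of MYCN is shown because E2F factors, which the retinoblastoma protein restrains, are known to act on this promoter. The 250 bases before the RefSeq start (GRCh38.p14, chr2:15940300-15940549, plus strand) hold the E2F-type sequences TTTGGCGC and TTTCGCGC, which overlap on opposite strands and are in capitals. The same stretch before NBAS (chr2:15561335-15561584, minus strand), the neighbour whose level differed least between the groups, holds neither.

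MYCN: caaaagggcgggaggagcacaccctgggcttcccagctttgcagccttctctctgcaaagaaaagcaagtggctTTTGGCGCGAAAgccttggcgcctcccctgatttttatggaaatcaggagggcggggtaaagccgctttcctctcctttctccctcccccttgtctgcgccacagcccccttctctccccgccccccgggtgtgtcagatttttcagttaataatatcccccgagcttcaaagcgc
NBAS: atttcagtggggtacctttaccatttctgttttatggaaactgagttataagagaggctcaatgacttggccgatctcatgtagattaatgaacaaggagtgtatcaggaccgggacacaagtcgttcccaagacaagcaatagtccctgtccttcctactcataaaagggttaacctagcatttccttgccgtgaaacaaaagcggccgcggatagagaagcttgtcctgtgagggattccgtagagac

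The capitals begin 176 bases before the MYCN start. Searched on both strands of the 300-base promoter windows in RefSeq (250 bases before to 50 after the start), TTTGGCGC occurs in 0.652% and TTTCGCGC in 0.515% of 35116 promoters. The E-box CACGTG occurs in 7.26% of them and in none of the windows of MYCN, DDX1, NBAS and MYCL. DDX1, NBAS and MYCL hold none of the 3 sequences. A match describes letters in a window and was not tested as a binding site.

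MYCN, the targeted gene (chromosome 2, 15940564 to 15947007, GRCh38, plus strand), was lower with its hairpin but remained one of the most abundant transcripts. It measured 3045.8, 3127.9 and 2875.8 CPM in the control libraries, while under the MYCN hairpin it measured 2413.4, 2283.8 and 2195.2 CPM. The highest MYCN hairpin library lay below the lowest control, so the groups did not overlap. The log2 fold change of MYCN was -0.39 ± 0.043 (SE, n = 3 a group; edgeR quasi-likelihood test, adjusted p = 8.0e-11), or -23.8% on the linear scale. By mean log2 CPM over all libraries, not divided by length, MYCN ranked 15 of 12819 genes. In bulk RNA, fewer cells with the full level and less RNA in each cell cannot be told apart. The antisense gene MYCNOS overlaps the start of MYCN on the other strand and was not analysed here, and without a known strand setting its reads cannot be told apart from those of MYCN in the overlap.

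MYC (chromosome 8, 127735434 to 127741434), the paralogue that is widely active in dividing tissues, rose from near the detection limit. The control libraries held 6, 6 and 5 counts, and the MYCN hairpin libraries held 50, 64 and 39. The controls lay under the minimum of 10 counts, so MYC passed the filter only through the libraries in which it was high. All MYCN hairpin libraries lay above all controls. The log2 fold change was 2.99 ± 0.299 (SE; edgeR, adjusted p = 6.2e-12). The summed counts of 17 and 153, each divided by the summed TMM-scaled library sizes of its group, gave a ratio of 8.07 with an exact 95% counting interval of 4.88 to 14.2. This counting interval is wider than the SE implies.

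MYCL (chromosome 1, 39895426 to 39902256), the third paralogue, did not pass the test. It measured 6.76, 7.47 and 6.38 CPM in controls, while under the MYCN hairpin it measured 7.20, 7.24 and 5.12 CPM. The groups overlapped, and MYCN hairpin replicate 3 alone lay below every control. The log2 fold change was -0.07 ± 0.133 (SE; edgeR, adjusted p = 0.619), with an approximate 95% interval of -0.33 to 0.19. It was 0.07 without MYCN hairpin replicate 3 and 0.11 with library sizes alone, and was called in neither.

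**Figure D1:**
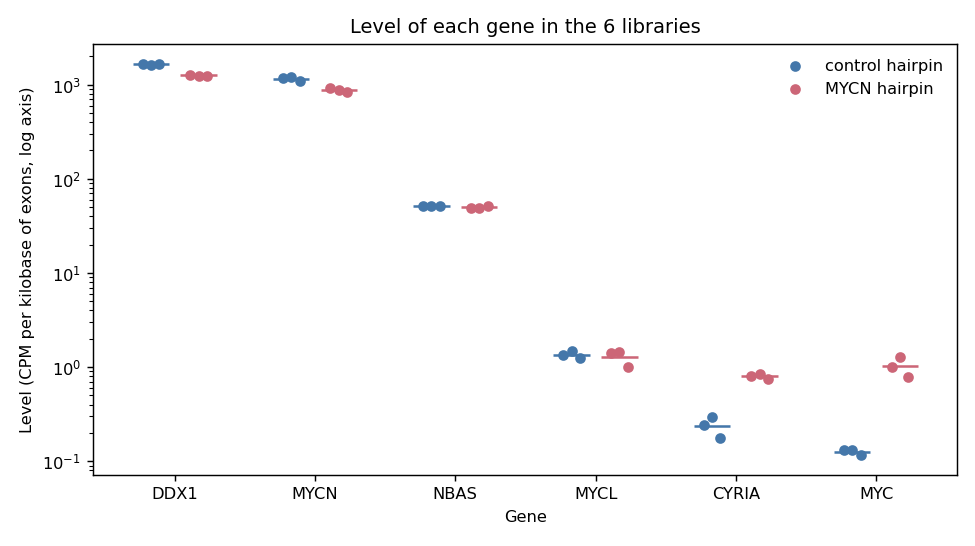
Level of each gene in CPM per kilobase of exons (log axis) in the 3 control libraries (blue) and the 3 MYCN hairpin libraries (red), with a line at each mean. DDX1 and MYCN lie near 1000 and apart from NBAS, the means of MYCL are 1.36 and 1.29, and MYC moves from 0.127 to 1.02, into the range of MYCL.

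Levels of different genes are compared per length, as CPM per kilobase of exons, where MYCN made up nearly all of the family's transcripts in both groups. In controls MYCN stood at 1159 ± 49.4 (SD, n = 3), MYCL at 1.36 ± 0.109 and MYC at 0.127 ± 0.00975 CPM per kilobase, with no overlap between any of the 3. With the MYCN hairpin MYCN stood at 883 ± 42.2, MYCL at 1.29 ± 0.239 and MYC at 1.02 ± 0.248 CPM per kilobase. MYC then spanned 0.793 to 1.29 and MYCL 1.01 to 1.43 CPM per kilobase, so the levels of these paralogues overlapped. The share of MYC in the summed level of the 3 paralogues was 0.0104% to 0.0112% in controls, while under the MYCN hairpin it was 0.0938% to 0.146%. The share of MYCN was 99.9% in each control and 99.7% to 99.8% with the MYCN hairpin. The summed level of the family was 1107 to 1204 CPM per kilobase in controls, while under the MYCN hairpin it was 845 to 930, so the added MYC transcript was small beside the MYCN transcript lost.

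DDX1 (chromosome 2, 15591178 to 15631111), the helicase gene upstream of MYCN, fell with a fold change close to that of MYCN. It measured 6278.7, 6205.8 and 6411.6 CPM in controls, while under the MYCN hairpin it measured 4857.1, 4765.8 and 4786.8 CPM. The groups lay far apart beside the spread within each. This gave DDX1 a log2 fold change of -0.39 ± 0.042 (SE; edgeR, adjusted p = 3.6e-11), or -23.7% on the linear scale. At 1643 ± 27.2 CPM per kilobase in controls (SD, n = 3) it stood above MYCN in every library. By mean log2 CPM, not divided by length, DDX1 ranked 5 of 12819 genes.

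NBAS (chromosome 2, 15166909 to 15561330), the next gene beyond DDX1, did not pass the test. Its libraries measured 456.5, 464.1 and 457.1 CPM in controls, while under the MYCN hairpin they were 442.6, 434.9 and 460.3 CPM. MYCN hairpin replicate 3 lay among the controls and the other 2 below them. The log2 fold change was -0.04 ± 0.038 (SE; edgeR, adjusted p = 0.315), with an approximate 95% interval of -0.12 to 0.03. With library sizes alone it was 0.14 and called (adjusted p = 5.8e-04), below the median of 0.19 that this scaling gave over all genes. Per length NBAS stood at 51.3 ± 0.476 CPM per kilobase in controls, far below DDX1 and MYCN.

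CYRIA (chromosome 2, 16549459 to 16666331, named FAM49A in GENCODE 29), the nearest tested gene downstream of MYCN, was scarce and rose. The control libraries held 20, 24 and 14 counts and the MYCN hairpin libraries 74, 76 and 66. No control reached the level of any MYCN hairpin library. This was a log2 fold change of 1.73 ± 0.200 (SE; edgeR, adjusted p = 2.9e-10), and the summed counts of 58 and 216, divided by library sizes in the same way, gave a ratio of 3.34 with an exact 95% counting interval of 2.49 to 4.55. Its level was 0.238 ± 0.0579 CPM per kilobase in controls and 0.796 ± 0.0522 with the MYCN hairpin (SD, n = 3), under MYCL in every library.

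**Figure D2:**
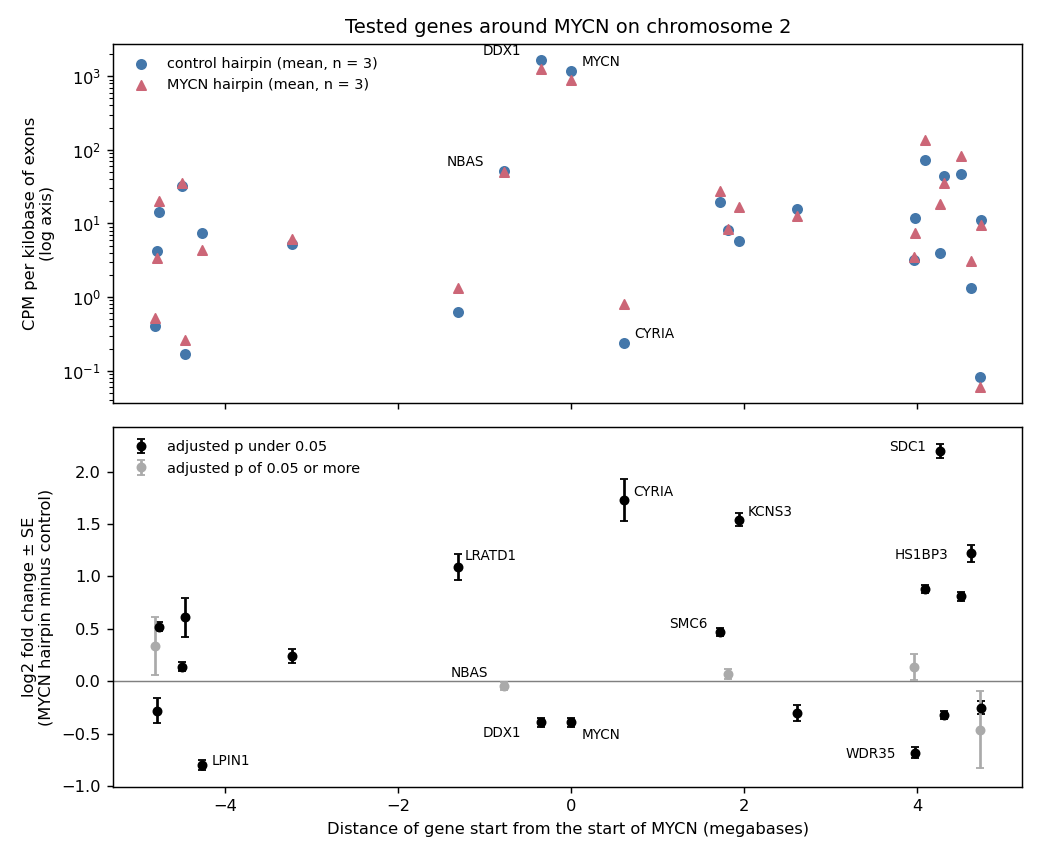
Tested genes within 5 megabases of MYCN, by the distance of their starts from the start of MYCN. The upper panel gives the mean level in CPM per kilobase (log axis; circles control, triangles MYCN hairpin), where DDX1 and MYCN stand apart at 1643 and 1159 in controls, and the lower panel the log2 fold change with its SE, where DDX1 and MYCN share a value of -0.39 between neighbours that differ in sign.

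High transcript levels around MYCN were limited to DDX1 and MYCN among the tested genes of the window. The table held 31 other genes with starts within 5 megabases of the start of MYCN, DDX1, NBAS and CYRIA included, of which 24 were tested. After DDX1 and MYCN the highest level in controls was 72.8 CPM per kilobase, for LAPTM4A, which encodes a lysosomal membrane protein and lies 4.09 megabases away. NBAS was next at 51.3, so its level was within the range of genes far from MYCN. Gene copy number was not measured in these libraries.

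Of these 24 neighbours 12 rose, 7 fell and 5 were not called, beside 38.0% and 37.9% of all tested genes, and their median log2 fold change was 0.19. With library sizes alone 4 were called lower. Within 2 megabases LRATD1, which lies on the far side of NBAS from MYCN, rose by 1.09 from 5.25 ± 1.20 to 11.2 ± 0.746 CPM. KCNS3, which encodes a modulatory potassium channel subunit, rose by 1.54 from 18.2 ± 0.762 to 53.0 ± 1.27 CPM. SMC6, a subunit of a chromosome maintenance complex, rose by 0.47, and GEN1, a Holliday junction resolvase gene, had a log2 fold change of 0.07 that was not called (adjusted p = 0.173). These last genes overlap on opposite strands, so reads in the overlap are uncertain, and GEN1 was called with upper quartile scaling (0.11) and with library sizes alone (0.25). RAD51AP2, VSNL1 and MSGN1, also within 2 megabases, held 2, 13 and 4 counts in the controls together and were not tested. Farther out SDC1, the cell surface proteoglycan syndecan 1, rose by 2.20 and HS1BP3 by 1.22, while LPIN1, a phosphatidate phosphatase, fell by 0.80 and WDR35, a component of intraflagellar transport, by 0.68.

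A ratio of 2 genes counted in the same library does not depend on scaling between libraries. The counts of MYCN were 0.485, 0.504 and 0.449 of those of DDX1 in controls and 0.497, 0.479 and 0.459 with the MYCN hairpin. These values overlapped, and the mean log2 ratio differed by -0.002 ± 0.060 (SE; exact permutation test, two-sided, p = 1). MYCN against NBAS moved from 6.67, 6.74 and 6.29 to 5.45, 5.25 and 4.77, a log2 difference of -0.35 ± 0.065 (SE). DDX1 against NBAS moved from 13.8, 13.4 and 14.0 to 11.0, 11.0 and 10.4, likewise a difference of -0.35 ± 0.032. Both ratios were lower in every MYCN hairpin library than in any control.

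Ratios that involve MYC or CYRIA moved furthest. For each MYC count the controls held 7733, 7817 and 8296 MYCN counts, and the MYCN hairpin libraries 811, 592 and 923. The log2 ratio of MYC to MYCN rose by 3.38 ± 0.193 (SE), and the ratio of MYCN to CYRIA fell by 2.17 ± 0.180 and that of DDX1 to CYRIA by 2.16 ± 0.230, each without overlap. The SE of a ratio comes from the spread of 3 libraries a group. For MYC the controls held only 6, 6 and 5 counts, and it passed the filter only through the MYCN hairpin libraries. With so few counts, counting error alone exceeds the SE of the MYC to MYCN ratio. MYCL to MYCN differed by 0.30 ± 0.139 with overlapping libraries (exact permutation p = 0.2, adjusted p = 0.233). Over the 7 ratios the exact permutation test cannot go below p = 0.1, which the 5 ratios without overlap reached (adjusted p = 0.14), so none could pass 0.05.

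**Figure D3:**
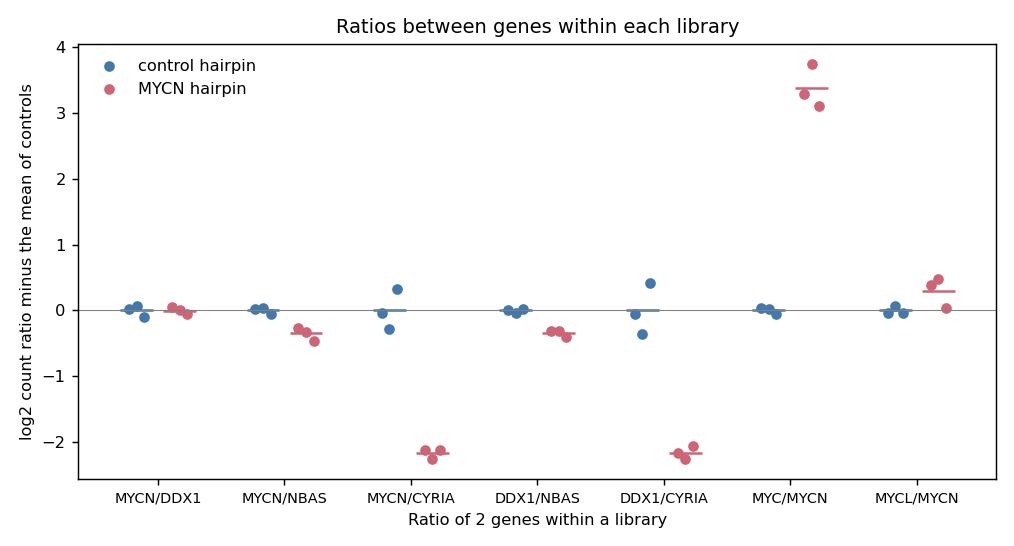
The log2 count ratio of each pair of genes in each library, less the mean of the controls for that pair (blue control, red MYCN hairpin, lines at means). MYCN/DDX1 overlaps around 0, MYCN/NBAS and DDX1/NBAS lie 0.35 lower with the MYCN hairpin, and MYC/MYCN lies 3.38 higher.

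The 4 called genes lay toward the ends of the abundance range, MYCN and DDX1 among abundant genes and MYC and CYRIA among scarce ones. This was not particular to called genes, since NBAS ranked 259 and MYCL 10384 of 12819 by level. Of the 50 most abundant tested genes, which include DDX1 and MYCN, 44 fell and 2 rose, with a median log2 fold change of -0.55. Of these 50, 34 had a lower log2 fold change than MYCN, and so did 3005 of all 12819 tested genes. At the other end, of 1750 genes with a mean under 2 on the log2 CPM scale, which include MYC and CYRIA, 717 rose and 359 fell, with a median of 0.26. The part of abundance in the values of the 6 genes was not tested.

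**Figure D4:**
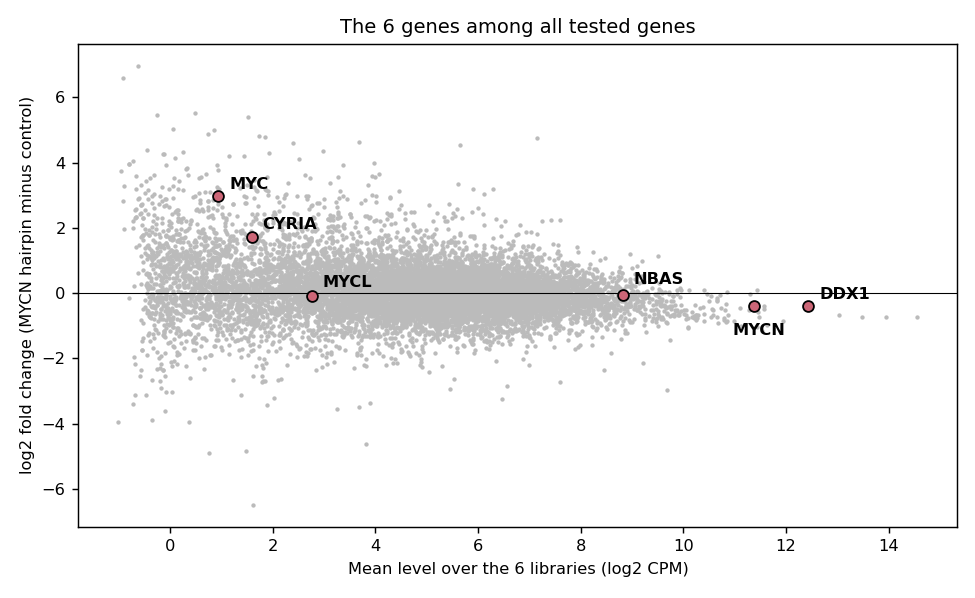
Mean log2 CPM over the 6 libraries (x axis) against log2 fold change (y axis) of all 12819 tested genes (grey), with the 6 genes in red. MYCN and DDX1 sit at the abundant end at -0.39, NBAS and MYCL near 0, and CYRIA (1.73) and MYC (2.99) among scarce genes that were higher.

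Several neighbours of MYC rose, but the nearest on either side did not, and the neighbours of MYCL moved in both directions. The nearest tested gene before MYC, LRATD2, lies 1.18 megabases away and fell by 0.55, from 9.10 ± 0.359 to 6.21 ± 0.451 CPM. The nearest after it, CYRIB, a paralogue of CYRIA, measured 113.0 ± 6.03 and 108.9 ± 5.10 CPM, and its log2 fold change of -0.05 was not called (edgeR, adjusted p = 0.301; 0.13 and called with library sizes alone). Of the 5 tested genes on each side of MYC 7 rose and 1 fell, beside 38.0% and 37.9% of all tested genes. KCNQ3 had the highest log2 fold change of them (1.96). It was scarce, with 10, 7 and 12 counts in the controls and 42, 42 and 43 with the MYCN hairpin. Like MYC, it therefore passed the filter only through the MYCN hairpin libraries. Around MYCL, whose level was not called, all 10 neighbours were called, 3 higher and 7 lower (3 lower under library sizes alone), beside 75.8% of all tested genes called, 38.0% higher and 37.9% lower. TRIT1, a tRNA modification enzyme gene that lies next to MYCL, fell by 0.84, and MFSD2A, which encodes a lipid transporter, by 1.75 from 11.7 ± 0.457 to 3.48 ± 0.386 CPM.

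Profiles most like each gene were sought over the 6 libraries by the Euclidean distance of log2 CPM centred on the gene's own mean. Nearest to MYCN were PMPCA, a subunit of the mitochondrial processing peptidase (distance 0.0459), MEN1, which encodes menin (0.0533), and PTOV1 (0.0537), each with a log2 fold change of -0.37. DDX1 itself was at rank 256 of 12818 by this distance (0.146). Nearest to DDX1 were SEPTIN11 (0.0198), a filament-forming GTPase gene, TAF2 (0.0345), a subunit of the general factor TFIID, and LRPPRC (0.0387), an RNA-binding protein of mitochondria. Nearest to MYC were IZUMO3 (0.273), C1QL1 (0.327) and MCOLN3 (0.343), higher with the MYCN hairpin as a choice by likeness to MYC implies. IZUMO3 held 0 counts in the controls and 13, 15 and 10 with the MYCN hairpin, so it passed the filter only through the latter. Its fitted fold change is therefore not given, and its distance depends on the prior count of 2 in log2 CPM. For CYRIA they were FXYD3 (0.189), VTN (0.231), which encodes vitronectin, and PSKH1 (0.260). MYCL (CARD10, LHX6 and GPRASP1) and NBAS (VBP1, CNOT8 and VPS35) had nearest profiles among genes that were not called. With library sizes alone VBP1, CNOT8 and VPS35 were called higher, as NBAS was.

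The partners of MYC proteins and the factors that control them moved in both directions. Over all tested genes 38.0% rose and 37.9% fell. Of 10 partner genes of the MAX and MLX network 4 rose and 4 fell, among them the sensor gene MLXIP (1.07) and the MYC antagonist MXD1 (0.99) against the antagonist MXI1 (-1.0) and MLXIPL (-1.01). Of 12 genes for turnover of MYC proteins 7 rose and 3 fell. FBXW7, the ubiquitin ligase subunit that marks MYC proteins for degradation, rose by 0.53, while the deubiquitinase genes USP28 and USP7 fell by 0.42 and 0.30. Of 11 regulators of the MYC genes 6 rose and 5 fell. E2F2 fell by 1.09 from 64.9 ± 4.32 to 30.5 ± 0.524 CPM and FUBP1, which encodes a protein that binds an element upstream of MYC, by 0.43. RB1 (0.48) and CTCF (0.33) rose, as did E2F1 (0.20) and E2F3 (0.17), named beside the E2F-type sequences of the MYCN promoter after their values were seen. These are transcript levels. Whether the cells held working retinoblastoma protein was not measured, so the RB1 value does not describe restraint of E2F factors.

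Textbook targets that MYC proteins activate were mostly lower. Of 24 such genes 20 fell, 3 rose and 1 was not called, with a median log2 fold change of -0.56. Over all tested genes 37.9% were called lower and the median was 0.00. Most genes of this list are abundant. Of the 100 most abundant tested genes 85 fell and 6 rose, also with a median of -0.56. The part of abundance in the values of this list was not tested. ODC1, the first enzyme of polyamine synthesis, fell from 650.9 ± 24.7 to 279.6 ± 11.8 CPM (-1.22 ± 0.041, log2 fold change with SE), and LDHA, a lactate dehydrogenase subunit, from 1471.4 ± 7.99 to 700.7 ± 5.30 CPM (-1.07 ± 0.039). RCC1 (0.61) and TFRC (0.33), the transferrin receptor gene, rose. MYCN itself had a log2 fold change of -0.39.

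Genes that MYC proteins are known to repress were divided. Of 12 genes 9 were tested, of which 5 rose and 2 fell, with a median of 0.26, beside 38.0% of all tested genes called higher. CDKN1A, which restrains cyclin-dependent kinases, rose by 1.20 from 302.8 ± 10.8 to 694.3 ± 40.7 CPM and CLU, which encodes clusterin, by 0.98. NDRG1, named for its repression by MYCN, fell by 1.87 from 40.5 ± 1.02 to 11.0 ± 0.458 CPM, opposite to the direction of this list's name.

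**Figure D5:**
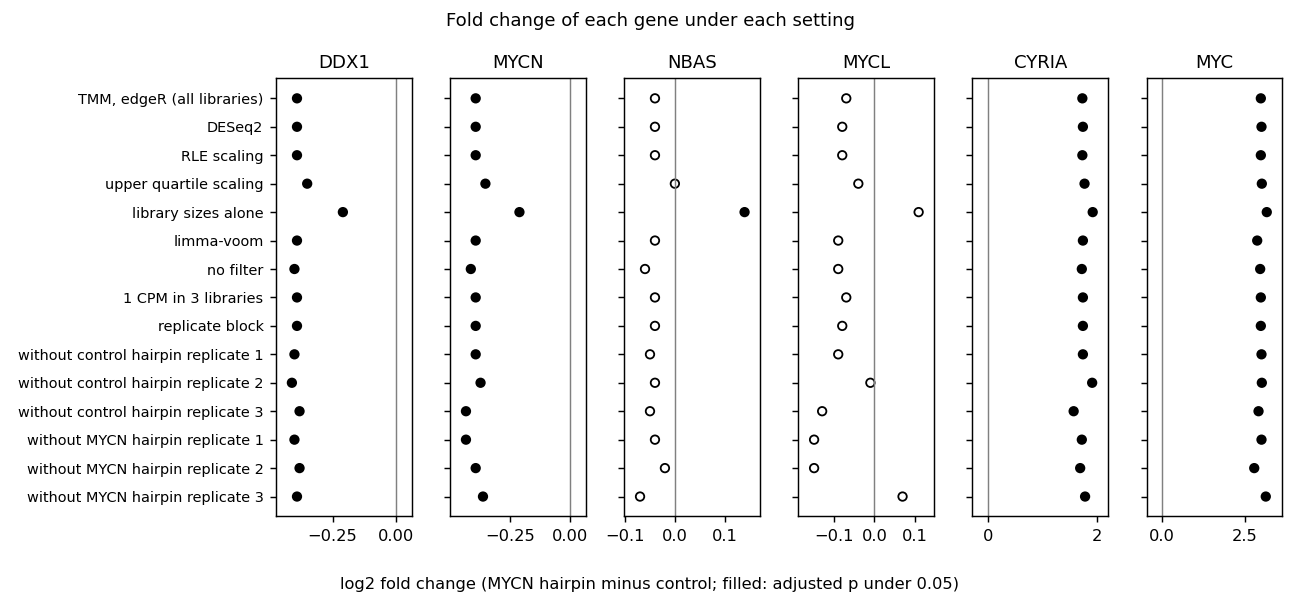
The log2 fold change of each gene (x axis, own scale per panel) under the TMM and edgeR setting and the 14 alternatives (rows), filled where adjusted p was under 0.05. MYCN, DDX1, CYRIA and MYC are filled in every row, MYCL in none, and NBAS only with library sizes alone (0.14).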

How the data were processed

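Poly(A)-selected RNA of 6 libraries was sequenced with paired reads, per the labels. The authors deposited estimated counts per gene symbol, without scaling between libraries. Per the submitters' processing notes, reads were placed on GRCh38. The annotation, aligner, counting program and strand setting are not given in these sources. Of 17035 rows, 22 without values were left out.

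Estimated counts were rounded and summed to 15490271 to 16078402 per library. Genes passing filterByExpr (minimum 10 counts) were tested in R 4.3.3 by the edgeR 4.0.16 quasi-likelihood test, with TMM scaling and Benjamini-Hochberg adjustment at 0.05. The SE of an edgeR log2 fold change is its absolute value divided by the square root of the F statistic. The code was tested on simulated data. CPM values are TMM scaled. Levels per kilobase divide CPM by the merged exon length in GENCODE 29 (GRCh38), and 16814 of 17013 genes were placed there through current and older symbols. Within-library ratios were compared with exact permutation tests in scipy 1.17.1. Intervals of counts are exact at 95% and cover counting error only. Profiles were compared as log2 CPM with a prior count of 2.

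Text names the 6 members, all tested genes within 2 megabases of MYCN, the 2 highest and 2 lowest called genes of the rest of the 5 megabase window, the nearest tested gene on each side of MYC and MYCL, the 2 smallest p in each direction of a list, and the 3 nearest profiles. Some genes that this rule names are not reported here. Members and lists were chosen with earlier results of these data known. Alternatives were DESeq2 1.42.0, limma-voom (limma 3.58.1), RLE, upper quartile and library size scaling, other filters, a replicate block, and each library left out.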

Additional observations from a re-analysis of the deposited data

How the results depend on the processing

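MYCN, DDX1, CYRIA and MYC kept their direction and their call under all 14 alternatives, with log2 fold changes of -0.43 to -0.21, -0.41 to -0.21, 1.57 to 1.92 and 2.79 to 3.17. With library sizes alone the value of NBAS was 0.14, that of MYCL 0.11, and 4 neighbours of MYCN were called lower in place of 7; this setting moves all genes upward by its construction. With one library left out MYCL ranged from -0.15 to 0.07, and the log2 difference of MYCN/DDX1 from -0.05 to 0.04. Other genes changed sign. With library sizes alone CYRIB (0.13), VBP1 (0.15), CNOT8 (0.17) and VPS35 (0.12) did so and became called, while CARD10 (0.18), LHX6 (0.04) and AIPL1 (0.07) were not called. The sign also changed with upper quartile scaling for CARD10 (0.03), VBP1 (0.01) and CNOT8 (0.03), and with the 1 CPM filter for CARD10 (0.00), none of them called. With one library left out CARD10 ranged from -0.11 to 0.13, GPRASP1 from -0.05 to 0.12 and CNOT8 from -0.03 to 0.00. The cause was not tested. With the replicate number as a block MYCN was -0.39, MYC 2.99, MYCL -0.08, DDX1 -0.39, NBAS -0.04 and CYRIA 1.74. No call changed among the 6. Between the groups, deviations of libraries of the same number had correlations of 0.0962, 0.0172 and 0.145. Those of libraries of different numbers had correlations of -0.12 to 0.0427. With 3 libraries a group these values cannot decide whether the replicates were paired. Depth limits MYC and CYRIA, with 5 to 24 counts in a control library.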

Other observations

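Among 10 genes known as MYCN targets from neuroblastoma, 4 rose and 4 fell, beside 38.0% and 37.9% of all tested genes. LIN28B, which encodes a protein that blocks maturation of let-7 microRNAs, rose from 39.4 ± 0.928 to 133.2 ± 2.89 CPM (SD, n = 3), and MDM2, a ubiquitin ligase gene, from 389.8 ± 14.1 to 776.1 ± 34.9 CPM. MCM7, a subunit of the replicative helicase, fell by 0.41. Named after their values were seen, the receptor kinase gene ALK rose from 1.95 ± 0.282 to 17.1 ± 1.5 CPM (3.13, log2 fold change), and TERT, the catalytic subunit of telomerase and a member of the activated list, fell from 5.20 ± 0.517 to 0.883 ± 0.245 CPM (-2.54).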
